A study of Rattus norvegicus with 16 samples.

Results

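Spliced ac4C peaks are enriched regions that the authors' peak lists drew as 2 or more exon blocks with gaps between them, so that the region continued from one annotated block into the next. They were taken as every peak with a block count of at least 2 in 5 lists of rat spinal dorsal horn, 3 of control rats and 2 of rats with bone cancer pain. They numbered 4253 of 8017 peaks (53.05%) and lay in 2965 of the 4792 genes with any peak. The other 3764 peaks had a single block. The list of bone cancer pain 1 held 50417 peaks, was left out for its length and is described separately near the end.

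The study compared normal wild-type rats with wild-type rats that had cancer-induced bone pain (CIBP), and the labels give 3 biological replicates per group. No strain, sex, age, tumour line or time point is given in the sources used here, nor is the number of rats in a replicate. Each replicate paired an immunoprecipitated library (IP, RNA pulled down with an ac4C antibody kit from TRIzol-extracted total RNA) with its input, and gave 1 peak list. The labels name the pain group CIBP whereas its peak lists carry the abbreviation CFA, and the groups here follow the labels.

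N4-acetylcytidine (ac4C) is a cytidine that carries an acetyl group, written into RNA by the acetyltransferase NAT10 and known from transfer RNA, ribosomal RNA and, by antibody-based mapping, messenger RNA. A messenger RNA leaves the nucleus after its introns are removed and its exons are joined. The fragments pulled down from it can therefore come from neighbouring exons that lie far apart in the genome. The dorsal horn of the spinal cord holds the neurons that first receive pain signals from the body, among oligodendrocytes, astrocytes and microglia.

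All positions are those of the rn6 build, counted from 1. A fold enrichment is the authors' ratio of IP over input for a peak, and a false discovery rate (FDR) is the authors' own value for it. Read depth is unknown for every library, so the precision of a single peak cannot be given. The blocks came from the deposited lists, and whether single reads crossed a gap was not analysed here, nor was transcript length. The spread given below is between lists, and p-values cover that spread only.

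Roughly equal parts of each list were spliced. Control 1, 2 and 3 had 644 of 1208 peaks (53.3%), 945 of 1802 (52.4%) and 780 of 1418 (55.0%). Bone cancer pain 2 and 3 had 1293 of 2416 (53.5%) and 591 of 1173 (50.4%). The groups overlapped, with means of 53.6% ± 1.31 (SD, n = 3) in control and 52.0% ± 2.22 (SD, n = 2) in bone cancer pain. The difference of -1.64 percentage points gave p = 0.6 in a two-sided exact permutation test of 3 lists against 2, which cannot go below 0.2 (Benjamini-Hochberg adjusted over the 6 tests made here, 1.0). The number of spliced peaks itself differed by more within a group than between them, from 591 to 1293 in bone cancer pain and from 644 to 945 in control.

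Most spliced peaks had few blocks. There were 2692 peaks of 2 blocks (63.3%), 1343 of 3 blocks (31.6%), 187 of 4 blocks (4.40%), 29 of 5 blocks and 2 of 6 blocks. The composition hardly moved from list to list, with 2-block peaks at 60.3% to 65.0% and peaks of 4 or more blocks at 4.34% to 6.41% of the spliced peaks. The mean number of blocks per spliced peak was 2.43 ± 0.034 (SD, n = 3) in control and 2.42 ± 0.0028 (SD, n = 2) in bone cancer pain.

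**Figure D1:**
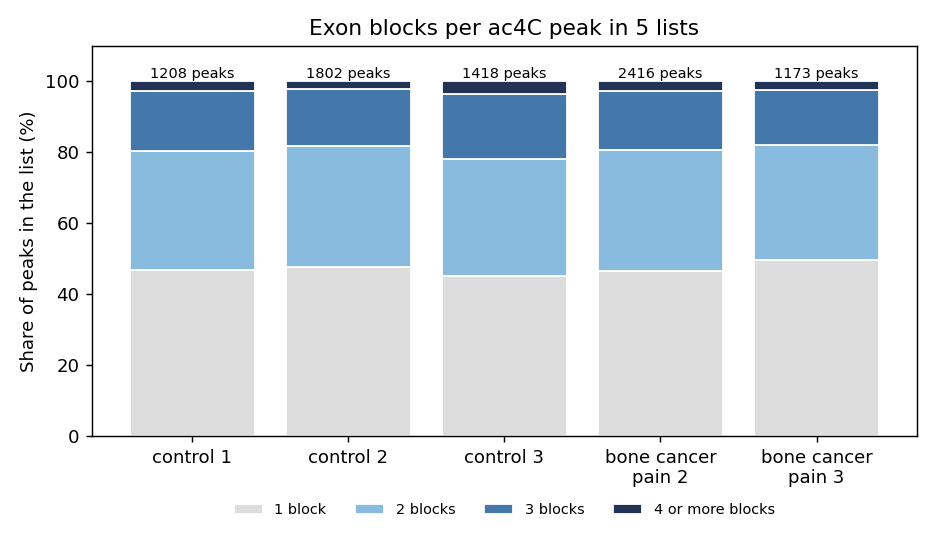
Share of the peaks of each list (%, vertical axis) with 1, 2, 3 and 4 or more blocks, for 3 control and 2 bone cancer pain lists; the number over a bar is the length of the list. The part above the grey segment, the spliced peaks, takes 50.4% to 55.0% of every list.

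The gaps had the sizes of introns in nearly all cases. The 4253 peaks held 6065 gaps with a median of 1297 bp and quartiles of 436 and 3169 bp. Only 38 gaps were under 50 bp, 36 of them under 10 bp, and no gap lay between 37 and 50 bp. Just above that empty stretch came 10 gaps of 50 to 69 bp and 321 of 70 to 99 bp. At the other end, 447 gaps were over 10000 bp and the largest was 257434 bp. The 15 peaks on the mitochondrial chromosome, whose genes have no introns, were all of 1 block. In 17 of the 4253 peaks no gap reached 50 bp, so for these the name splice junction rests on the block count alone.

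**Figure D2:**
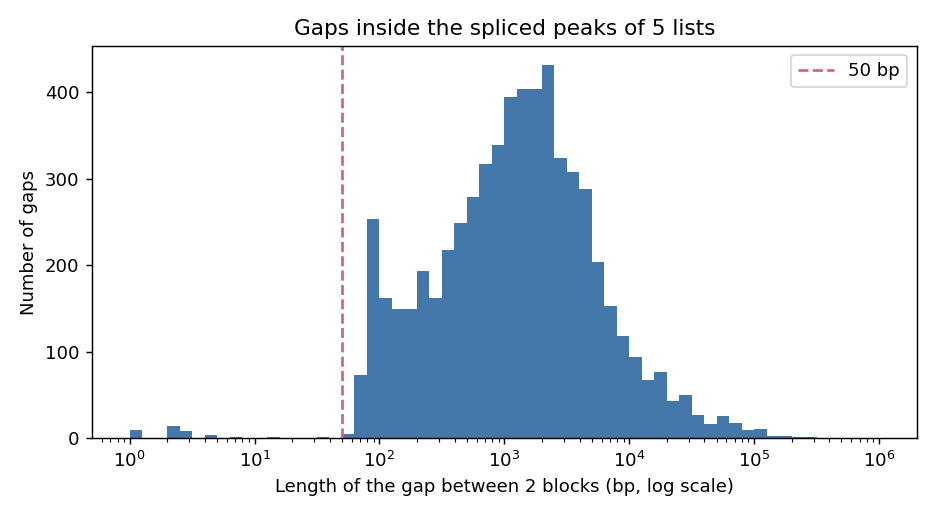
Lengths of the 6065 gaps between blocks in the spliced peaks of 5 lists (horizontal axis in bp, log scale; vertical axis, number of gaps); the dashed line marks 50 bp. The 38 gaps left of the line stand apart from the main body, whose median is 1297 bp.

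Spliced peaks had the same median exonic width as single-block peaks and covered far more genome. The exonic width (the sum of the blocks) had a median of 180 bp in each of the 5 lists for both kinds of peak, and ran from 115 to 451 bp among the spliced peaks. The widths came in steps, and 95.7% to 97.3% of spliced peaks per list lay within 2 bp of a multiple of 30 bp. With both medians on the same step, the difference was 0 in every list and the exact sign-flip test over 5 lists had only values of 0 (p = 1.0, adjusted 1.0), so it says nothing about smaller differences. Mean widths were 172 to 177 bp for single-block peaks, 170 to 176 bp for 2 blocks, 180 to 186 bp for 3 blocks and 205 to 236 bp for 4 or more, over the 5 lists. The genomic span, from the first to the last base, had a median of 2118 bp (quartiles 879 and 4973) for spliced peaks. In control 1, 2 and 3 the median span was 2083, 1926 and 2247 bp, and in bone cancer pain 2 and 3 it was 2168 and 2323 bp. Between 9.74% and 13.4% of the spliced peaks of a list spanned over 10000 bp.

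**Figure D3:**
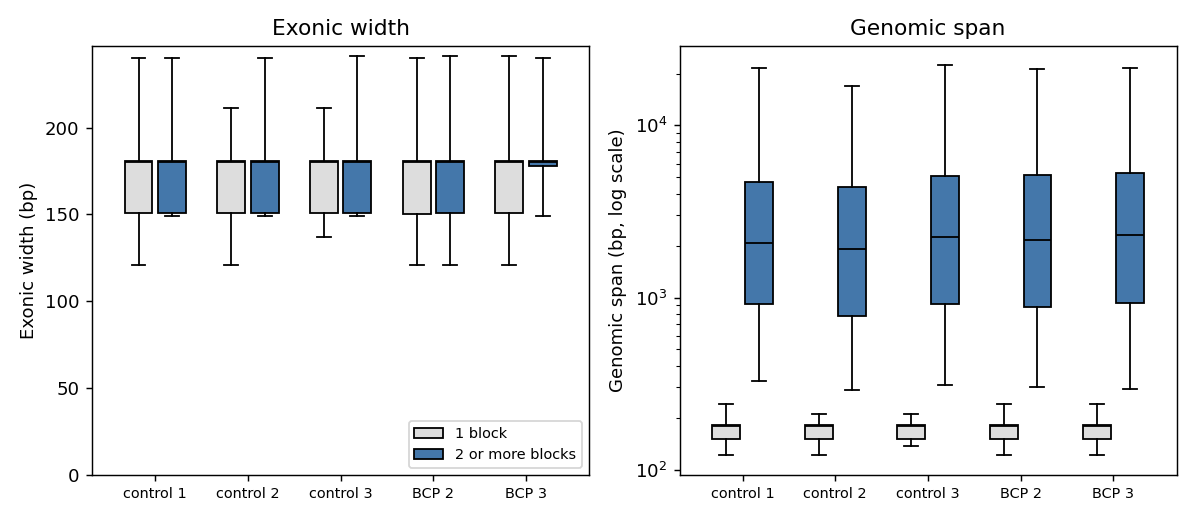
Exonic width (left, bp) and genomic span (right, bp, log scale) of peaks with 1 block (grey) and with 2 or more blocks (blue) in 5 lists; boxes are quartiles with the median as a line, whiskers the 5th and 95th percentiles, and BCP is bone cancer pain. The medians of width are 180 bp throughout, while the spliced peaks span medians of 1926 to 2323 bp.

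Within a peak, the junction could fall anywhere. In the 2692 peaks of 2 blocks, the 5′ block held a median of 49.7% of the width (quartiles 29.3% and 69.4%). It held under 20% of the width in 406 peaks, 20% to 40% in 604, 40% to 60% in 687, 60% to 80% in 598 and 80% or more in 397. The counts were thus highest in the middle and nearly the same on both sides. The smallest block was under 10 bp in 648 peaks (15.2%), and of 1 to 3 bp in 205.

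Peaks of 3 or more blocks have internal blocks, which are whole as the lists drew them, and in 1542 of 1561 such peaks every gap was of at least 50 bp. Whether an internal block is a complete annotated exon was not analysed here. There were 1725 distinct internal blocks between gaps of at least 50 bp, with a median of 89 bp (quartiles 67 and 116) and a maximum of 262 bp. A coding exon whose length is divisible by 3 can be skipped without shifting the reading frame. Of these blocks, 719 (41.7%) had such a length, 517 left a remainder of 1 and 489 a remainder of 2. By list the share divisible by 3 was 42.4%, 46.1% and 36.7% in control 1, 2 and 3. It was 39.8% in bone cancer pain 2 and 44.7% in bone cancer pain 3, so that the groups overlapped.

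Among them were 39 distinct blocks of at most 27 bp in 37 genes, the size of microexons, which are very short exons used above all in neurons. 23 of the 39 had a length divisible by 3, and 1 of the 39 occurred in more than 1 list. Examples chosen after their values were seen follow. In Ptk2, which encodes focal adhesion kinase, a 9 bp block at chr7:114448460-114448468 lay in a peak of bone cancer pain 3 with a fold of 146 (FDR 5.01e-47). In Agap1, an Arf GTPase regulator, a 12 bp block at chr9:96752007-96752018 lay in a peak of bone cancer pain 2 with a fold of 24.0. In Dnm1, the dynamin of synaptic vesicle retrieval, a 12 bp block at chr3:11345102-11345113 lay in a peak of control 3 with a fold of 16.1. In Ap2m1, a subunit of the clathrin adaptor AP-2, a 6 bp block lay in a peak of control 3 with a fold of 5.95. The blocks named so far had lengths divisible by 3. Others did not, such as a 5 bp block of Stau2 (control 2, fold 33.7) and an 8 bp block of Acaa2 (control 2, fold 111). All bounds are those of the authors, and blocks of 2 or 3 bp occur as well, as in Hif1a (2 bp, control 1).

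The peaks with the most blocks lay in genes of varied function. Fxyd7, a small regulator of the sodium pump, had a peak of 6 blocks at chr1:89474898-89483958 in bone cancer pain 2, with a width of 387 bp, gaps from 98 to 4340 bp and a fold of 41.8 (FDR 6.03e-09). Gripap1, which acts in the traffic of AMPA receptors, had 6 blocks within 241 bp in control 2 (chrX:15539807-15543085, fold 6.52, FDR 0.000191). Selenom, an endoplasmic reticulum selenoprotein, had 5 blocks in bone cancer pain 3 (fold 184), but 1 of its gaps was of 3 bp. Snrnp200, the helicase that unwinds U4 from U6 in the spliceosome, had 5 blocks over 420 bp in control 1 (chr3:119648451-119649801, fold 42.4, FDR 6.31e-45). Ech1, an enzyme of fatty acid oxidation, had 5 blocks in bone cancer pain 3 with a fold of 70.7. The peaks named here came from 4 of the 5 lists and both groups. They are a part of such peaks, since 29 spliced peaks had 5 blocks and each of the 5 lists held from 3 to 7 of them.

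Some spliced peaks were wider than 400 bp, and 4 of them follow. Cops6, a subunit of the COP9 signalosome, had 441 bp in 4 blocks in bone cancer pain 2 (chr12:19303416-19304464, fold 20.9, FDR 2e-13). Amz2, a metallopeptidase, had 421 bp in 3 blocks in control 3 (fold 39.1). Clock, a circadian transcription factor, had 421 bp in 5 blocks in bone cancer pain 2 (fold 20.9, FDR 0.00741). Snrnp200, above, had 420 bp. Each of these 4 had 3 or more blocks.

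The longest spans arose from very long gaps. They are given for genes with a symbol, and a peak of an unnamed gene in bone cancer pain 2 spanned 220545 bp. Cntnap2, which encodes the Caspr2 protein that clusters potassium channels along myelinated axons, had a 180 bp peak spread over 347419 bp in control 1 (chr4:76232255-76579673, fold 22.0, FDR 6.31e-12), with gaps of 257434 and 89805 bp. Atp2b2, a plasma membrane calcium pump, spanned 206416 bp in bone cancer pain 2 with 4 blocks (fold 15.7, FDR 0.0468). Kcnma1, the BK potassium channel, spanned 198064 bp in control 3 (fold 61.4, FDR 2e-15). Rit2, a neuronal small GTPase, spanned 180236 bp in control 1, at a fold of 3.21 and an FDR of 0.114. Gabrb1, the beta 1 subunit of the GABA-A receptor, spanned 176820 bp in bone cancer pain 3 (fold 5.89, FDR 0.00525). The outer blocks of such peaks could be as short as 6 bp in Cntnap2 and 3 bp in Atp2b2, while in Kcnma1 both blocks were long, at 165 and 75 bp.

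The smallest gaps were of 1 bp and lay in Kcnj10 (the Kir4.1 channel of astrocytes, control 1), Ahi1 (a protein of the cilium, bone cancer pain 3) and Optn (an autophagy receptor, bone cancer pain 2). The Kcnj10 peak had 3 blocks with gaps of 2 and 1 bp, so no gap of intron size. The Optn peak also held a gap of 979 bp.

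The strongest spliced peaks differed from list to list. They were ranked by fold among peaks with an FDR of at most 0.05 in genes with a symbol. Peaks of unnamed genes reached higher in control 1 (545), control 3 (419) and bone cancer pain 3 (1520). Among named genes control 1 was led by Atp11b, a phospholipid flippase, with a fold of 524 over 3 blocks (chr2:122368265-122378537, FDR 1e-276). Next was Hsd17b8, an enzyme of fatty acid synthesis, with 417, whose gap was of 7 bp only. Control 2 was led by Sept8, a septin, with 235 (chr10:38900973-38905225) and the giant protein gene Ahnak with 189. Control 3 was led by Uqcrc1, a core subunit of respiratory complex III, with 329 and Clk4, a kinase of splicing factors, with 307. Bone cancer pain 2 was led by Usp34, a deubiquitinating enzyme, with 533 and Tubgcp5, of the gamma-tubulin complex, with 214. Bone cancer pain 3 was led by Ttl, the tubulin tyrosine ligase, with 1400 (chr3:121618903-121623420, FDR 1e-242) and Dnajc2, a ribosome-associated chaperone, with 1390. No named gene was among the strongest 2 of more than 1 list.

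The typical fold did not separate the groups. The median fold of spliced peaks was 11.5 in control 1, 13.0 in control 2 and 16.7 in control 3. It was 10.5 in bone cancer pain 2 and 17.7 in bone cancer pain 3. The 2 bone cancer pain lists thus held the lowest and the highest value. On the log2 scale the medians averaged 3.76 ± 0.274 (SD, n = 3) in control and 3.77 ± 0.533 (SD, n = 2) in bone cancer pain, a difference of 0.0071 (exact permutation test, p = 1.0, adjusted 1.0). At an FDR of at most 0.05 the difference was 0.56 (p = 0.4, exact, unadjusted), with medians of 14.0, 13.0 and 22.3 in control and of 20.9 and 26.5 in bone cancer pain. Many peaks of a list shared 1 exact fold, such as 196 of the 945 spliced peaks of control 2 at 13.0, and 336 of the 1293 of bone cancer pain 2 at 10.5. Medians of fold that fall on such a value are coarse.

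Spliced and single-block peaks of the same list were compared by their median fold. It was 11.5 against 13.4 in control 1, and equal in the other 4 lists, where both medians fell on a fold shared by many peaks. The mean log2 ratio of the medians was -0.044 ± 0.099 (SD, n = 5), with p = 1.0 in the exact sign-flip test (adjusted 1.0). Among peaks with an FDR of at most 0.05 the medians were 14.0 against 16.0 in control 1, 13.0 against 19.6 in control 2 and 22.3 against 24.2 in control 3. They were 20.9 against 20.9 in bone cancer pain 2 and 26.5 against 29.3 in bone cancer pain 3. Spliced peaks were thus lower in 4 of 5 lists at that limit, with a mean log2 ratio of -0.210 (exact sign-flip test, p = 0.125, unadjusted).

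Spliced peaks met the FDR limit of 0.05 more often than single-block peaks in 5 of 5 lists, by margins from 0.365 to 7.18 percentage points. In control 1, 78.3% of spliced and 73.0% of single-block peaks met it, where 75.8% of all peaks did. In control 2 the shares were 60.8% and 58.2% (59.6% of all peaks), and in control 3 they were 70.9% and 70.5% (70.7% of all peaks). Bone cancer pain 2 had 52.0% and 50.6% (51.3% of all peaks), and bone cancer pain 3 had 80.2% and 73.0% (76.6% of all peaks). Over the 5 lists 64.0% of all peaks met the limit. The mean difference was 3.35 percentage points ± 2.80 (SD, n = 5), and the exact sign-flip test gave p = 0.063, the smallest that 5 lists allow (adjusted 0.375), so it did not pass.

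The margin was widest for peaks of 4 or more blocks. For peaks of 1, 2, 3 and 4 or more blocks the shares at the FDR limit in control 1 were 73.0%, 76.4%, 79.4% and 94.1%. In control 2 they were 58.2%, 57.7%, 64.5% and 82.9%. In control 3 they were 70.5%, 69.6%, 70.8% and 84.0%. In bone cancer pain 2 they were 50.6%, 46.1%, 59.9% and 78.1%, and in bone cancer pain 3 they were 73.0%, 78.4%, 82.5% and 89.7%. Peaks of 2 blocks thus lay below single-block peaks in 3 of the 5 lists, and peaks of 4 or more blocks lay highest in all 5. The latter were also the widest, and the part of width in their FDR was not tested. This order over block numbers is a description, without a test.

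Few spliced peaks recurred. A peak counted as recurring when its blocks overlapped those of a peak of another of the 5 lists by 1 bp or more, strand for strand. This held for 609 of the 4253 spliced peaks (14.3%), and in 569 of these the partner or 1 of the partners was itself spliced. In control 1, 15.4% of spliced peaks recurred against 17.6% of single-block peaks. The shares were 12.2% against 13.3% in control 2, 16.8% against 16.3% in control 3, 13.1% against 14.3% in bone cancer pain 2, and 16.1% against 26.8% in bone cancer pain 3. Spliced peaks were lower in 4 of 5 lists, with a mean difference of -2.96 percentage points ± 4.45 (SD, n = 5) and p = 0.125 in the exact sign-flip test (adjusted 0.375). Overlap is mutual, so the lists are not fully independent in this test and its p-value is approximate. Most of the mean difference came from bone cancer pain 3, at -10.7 percentage points. With that list left out, also as a partner for overlap, the mean difference was -0.336.

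**Figure D4:**
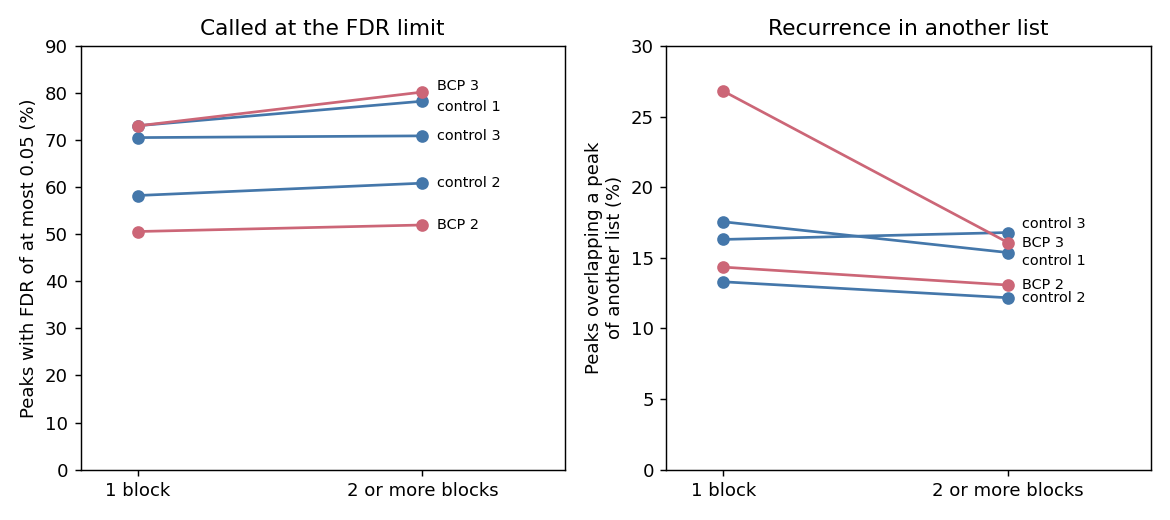
Per-list shares (%, vertical axes) of single-block peaks and of peaks with 2 or more blocks that met an FDR of 0.05 (left) and that overlapped a peak of another list (right); each line joins the values of 1 list, blue for control and red for bone cancer pain (BCP). On the left every line rises, by 0.365 to 7.18 percentage points; on the right bone cancer pain 3 falls from 26.8% to 16.1%.

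A junction, defined by the last base before a gap and the first base after it, allowed a stricter comparison. The spliced peaks held 5756 distinct junctions, of which 5467 occurred in 1 list, 276 in 2 lists, 13 in 3 lists and 0 in 4 or 5 lists. At an FDR of at most 0.05 the number found in 2 or more lists was 174 in place of 289. Without bone cancer pain 2 it was 141, without control 3 it was 162 and without bone cancer pain 3 it was 190. In all, 464 spliced peaks (10.9%) carried a junction that another list also held.

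Lists of the same group shared junctions about as rarely as lists of different groups. Of the union of 2 lists, 1.11% to 1.95% was shared in the 4 pairs within a group and 0.699% to 1.92% in the 6 pairs between groups. The 2 bone cancer pain lists shared 51 junctions, which were 2.78% of those of bone cancer pain 2 and 6.09% of those of bone cancer pain 3. Control 3 and bone cancer pain 2, from different groups, shared 56. There were 45 junctions in both bone cancer pain lists and no control list, and 76 in at least 2 control lists and no bone cancer pain list. The pairs share lists, and no test was made.

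The 13 junctions of 3 lists lay in 11 genes. The strongest was in Usp34, a deubiquitinating enzyme that acts in Wnt signalling, across a gap of 2928 bp on chromosome 14 between bases 108144203 and 108147132. Its peak had a fold of 61.3 in control 1, 13.6 in control 2 and 533 in bone cancer pain 2, and the FDR was 2.51e-34 or lower in each. In control 3 and bone cancer pain 3 a single-block peak lay on the 5′ side of the same gap, at chr14:108144022-108144202 (fold 24.2) and chr14:108143992-108144202 (fold 42.4). All 5 lists thus had a peak at this exon of Usp34, and it ran on across the junction in 3 of them.

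Both bone cancer pain lists and 1 control list held the junctions of 3 genes of gene expression. Rps23, a protein of the small ribosomal subunit, had folds of 8.37 in control 3, 3.95 in bone cancer pain 2 and 11.3 in bone cancer pain 3 (gap of 547 bp). Ylpm1, a nuclear protein, had 10 in control 1, 4.48 in bone cancer pain 2 and 4.57 in bone cancer pain 3 across 16042 bp. Luc7l2, a factor of the U1 particle that reads 5′ splice sites, had 1.64 in control 3, 2.92 in bone cancer pain 2 and 2.15 in bone cancer pain 3. These 3 met an FDR of 0.05 in each list where they occurred.

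2 genes had 2 junctions each in 3 lists, with a whole block between them. Ak5, an adenylate kinase of the brain, had a peak of 3 blocks, at chr2:257739332-257813594 in control 1, with folds of 2.91 in control 1, 8.30 in control 2 and 50.2 in control 3, across gaps of 5100 and 68983 bp. It had no such peak in either bone cancer pain list, and these were the only 2 junctions held by all 3 control lists. Serpini1, the neuronal protease inhibitor neuroserpin, had folds of 13.0 in control 2, 3.14 in bone cancer pain 2 and 53.0 in bone cancer pain 3. Of the Serpini1 peaks, only that of bone cancer pain 3 met an FDR of 0.05 (1.51e-06).

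A further 4 junctions were in Trak1, an adaptor of mitochondrial transport, Odf2, a protein of the centriole, Fam193b and Cit. Trak1 had folds of 2.17 in control 2, 83.7 in control 3 and 10.5 in bone cancer pain 2. Folds at the same junction thus differed widely between lists of 1 group, as control 2 and control 3 show for Trak1. In bone cancer pain 2 the Trak1, Odf2, Fam193b and Serpini1 peaks had an FDR of 0.127. In control 2 the Odf2 and Fam193b peaks had an FDR of 0.0794 and the Serpini1 peak one of 0.0759. Cit, whose product citron kinase acts in cell division, kept the same bounds (chr12:46349919-46351896, 181 bp) in control 2, control 3 and bone cancer pain 2, at folds of 5.22, 16.7 and 3.73.

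**Figure D5:**
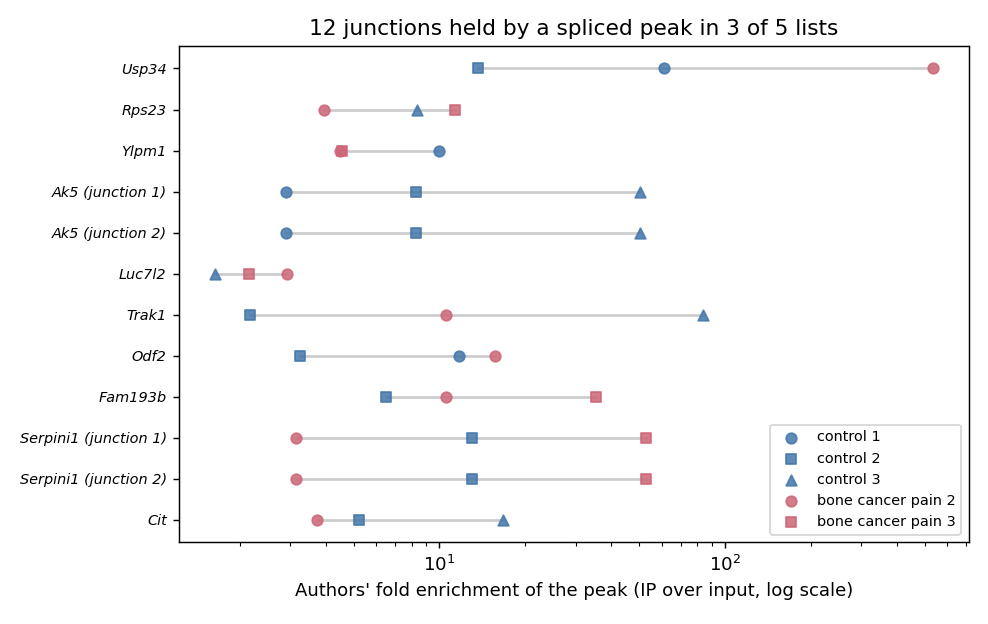
Authors' fold enrichment (horizontal axis, IP over input, log scale) of the peaks that hold each of 12 of the 13 junctions found in 3 of 5 lists; 1 point per list, blue for control and red for bone cancer pain, with a grey line over the range. Folds run from 1.64 in Luc7l2 to 533 in Usp34, and the colours mix along most lines.

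Recurrence was also counted by gene, which is looser because the peaks of a gene need not overlap. Of the 2965 genes, 2228 had a spliced peak in 1 list (75.1%), 557 in 2, 153 in 3, 24 in 4 and 3 in all 5. For single-block peaks 76.6% of genes were in 1 list. The 3 genes of all 5 lists were Macf1, Syne1 and Cit. Of these, only Macf1 had a spliced peak at an FDR of at most 0.05 in every list. The only spliced peak of Syne1 in control 2 had an FDR of 0.0759. For Cit in control 1 it was 0.103. In Macf1, a giant linker of actin and microtubules, the 9 spliced peaks held 9 distinct junctions, 2 of which occurred in more than 1 list. Its highest fold per list was 1.86 in control 1, 15.0 in control 2, 16.7 in control 3, 2.46 in bone cancer pain 2 and 29.3 in bone cancer pain 3. In Syne1, whose product nesprin 1 ties the nucleus to the cytoskeleton, 12 peaks held 13 junctions and none of them recurred. Its folds ran from 2.81 to 16.7, and the peaks lay between chr1:41609197 and chr1:41981399.

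The next 7 genes by the rule had spliced peaks in 4 lists. Usp34 lacked one in bone cancer pain 3 and had 7 peaks, among them 1 at chr14:108228753-108229035 in control 1 with a fold of 106. Kif1a, the motor that carries synaptic vesicle precursors down axons, had 7 peaks with folds from 2.13 to 119, the highest in control 3. Serbp1, an RNA-binding protein of the ribosome, had folds of 5.39 in control 1, 12.5 in control 2, 28.8 in bone cancer pain 2 and 11.4 in bone cancer pain 3, each at a different place but for 1 shared junction. Rab3gap1, which inactivates the vesicle GTPase Rab3, had 3.67 in control 2, 11.2 in control 3, 7.84 in bone cancer pain 2 and 118 in bone cancer pain 3. Eif4g3, a scaffold of translation initiation, had folds from 11.8 to 31.0, and Sptan1, the spectrin of the axonal membrane skeleton, from 1.75 to 42.4. Il6st, the gp130 receptor chain shared by the interleukin 6 family, had 17.2 in control 1, 2.61 in control 2, 20.9 in bone cancer pain 2 and 15.3 in bone cancer pain 3. In these first 10 genes the 64 spliced peaks held 72 distinct junctions and 10 of those occurred in more than 1 list.

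Most genes had spliced peaks in one group only, since most were in a single list: 1381 of the 2965 genes had them in controls only, 1062 in bone cancer pain only and 522 in both groups. Fewer recurred within 1 group. 58 genes had one in both bone cancer pain lists and no control list, which is 1.96% of the 2965 genes with a spliced peak; for peaks of any kind it was 2.44% of 4792 genes. 157 genes had one in at least 2 control lists and no bone cancer pain list, which is 5.3%, against 5.97% for peaks of any kind. The counts of the 2 directions rest on unequal numbers of lists and are not set against each other. Neither share exceeded that for peaks of any kind. When only peaks with an FDR of at most 0.05 were kept in both groups before counting, there were 30 and 108 genes. Of the 58 and 157 genes themselves, 27 and 90 had spliced peaks at that limit in 2 or more lists. With bone cancer pain 1 added, the first count became 655 and the second 67. The control-only count was 74, 51 and 64 without control 1, 2 and 3. In 18 of the 58 and 29 of the 157 genes the other group had a single-block peak, so the gene was not without ac4C peaks there.

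Of the genes held by bone cancer pain only, Ttl, which adds tyrosine back to tubulin, had a fold of 88.9 in bone cancer pain 2 and of 1400 in bone cancer pain 3, at different places of the gene. Dnajc13, of endosomal sorting, had 10.5 (FDR 0.127) and 292 in the same order. Cdk13, a kinase of RNA polymerase II, had its peaks across the same gap of 1338 bp at 10.5 (FDR 0.127) and 1280 (FDR 1e-219), and a single-block peak in control 3 (fold 11.2, FDR 0.0617). Rpl15, of the large ribosomal subunit, had 8.02 and 53.9. Igf1r, the receptor of insulin-like growth factor 1, had 10.5 (FDR 0.127) and 433, and Gtf2h1, a subunit of TFIIH, had 52.3 and 459, beside a single-block peak in control 2 (fold 15.2, FDR 2.45e-07). Fam168a crossed the same gap of 94530 bp in both lists at 27.4 and 59.1. Selenom, Fbxo18 (a DNA helicase) and Iqsec1 (an activator of Arf6) completed the first 10. Their highest folds were 15.7 (FDR 0.127), 20.9 and 10.5 in bone cancer pain 2, against 184, 124 and 23.4 in bone cancer pain 3. Iqsec1 also had a single-block peak in control 3 (fold 11.2, FDR 5.75e-06). Bone cancer pain 3 had the higher fold in each of these 10, which were ranked by their smallest p-value, and in 34 of all 58 genes, while bone cancer pain 2 had it in 24. None of the 10 had a spliced peak at an FDR of at most 0.05 in bone cancer pain 1.

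Of the genes held by controls only, 16 had spliced peaks in all 3 lists, and the first 10 were taken from these. Kmt2c, a histone H3 lysine methyltransferase, had highest folds of 80.5, 26.1 and 11.2 (FDR 0.0617) in control 1, 2 and 3. Abca2, a lipid transporter of oligodendrocytes, had 11.3, 3.91 and 41.3, and a single-block peak in bone cancer pain 3. Kif21a, a kinesin, had 2.20, 5.59 and 251. Zfyve27, which promotes the growth of neurites, had 377, 13.0 (FDR 0.0794) and 106. Pak1, a kinase of the actin cytoskeleton, had 3.59, 2.69 and 13.7, each at an FDR of 2.24e-07 or lower. Tanc2, a postsynaptic scaffold, had 168, 13.0 and 39.1, and Bin1, which bends membranes, had 10.6, 1.46 and 11.2, beside a single-block peak in bone cancer pain 2 (fold 10.5, FDR 8.32e-07). Fam13b, Sec63 (of protein entry to the endoplasmic reticulum) and Ncbp3 (a cap-binding protein) had folds of 24.0, 22.0 and 26.0 in control 1. In control 2 they had 4.35, 1.86 and 4.89, each at an FDR of 0.0794, and in control 3 they had 11.2 (FDR 0.0617), 44.7 and 16.7. Sec63 also had a spliced peak at an FDR of 0.00457 in bone cancer pain 1. Folds of a gene thus differed widely among the 3 control lists.

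Fixed gene lists were read against 29.7% of the 8564 named genes with a spliced peak in any list and 8.24% with one in 2 or more lists. Names came from the RIP table described below, so genes outside it stayed unnamed. Among giant cytoskeletal linkers 19 of 23 named genes had a spliced peak and 14 had one in 2 or more lists. Besides Macf1 and Syne1 these held Dst with 12 spliced peaks in 4 lists, Ank3 (the ankyrin of the axon initial segment, highest fold 167) and Epb41l3 (a membrane skeleton protein, highest fold 85.2). Of the list's 155 peaks 51.0% were spliced. The Dst peak at chr9:37942439-37944678, with gaps of 101 and 1959 bp, had the same bounds in control 3 (fold 35.4) and bone cancer pain 2 (fold 3.53).

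Among motor proteins 26 of 30 had a spliced peak and 13 had one in 2 or more lists, and 79.1% of the list's 86 peaks were spliced. Kif5a, a kinesin of axonal transport, had folds of 15.6 in control 3 and 2.44 in bone cancer pain 2. Dctn2, a dynactin subunit, reached 225 and Myo18a 117. Of ubiquitin proteases and ligases 28 of 34 had a spliced peak, 16 in 2 or more lists, and 80.4% of 92 peaks were spliced. Herc1, a giant ligase, reached a fold of 586 in bone cancer pain 3 (chr8:72172839-72174505, FDR 1e-299) and also had a spliced peak in bone cancer pain 2. Its fold in control 3 was 11.2, the commonest fold of that list, held by 167 of its 780 spliced peaks. Ubr4 had 8 spliced peaks in 4 lists with a highest fold of 69.1.

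Of chromatin remodellers and histone modifiers 30 of 44 had a spliced peak, 19 in 2 or more lists. Chd4, the helicase of the NuRD complex, had 7 spliced peaks in 4 lists. Chd7 had a fold of 228 in bone cancer pain 3 and 16.0 in control 1, and Kdm5c, a histone demethylase, had 171 in bone cancer pain 3 and 32.6 in control 2. Of splicing factors and RNA helicases 30 of 56 had a spliced peak, 13 in 2 or more lists. Among these, Snrnp200 occurred in 4 lists, and Prpf8, Prpf6, Sf3a1 and Luc7l2, all of spliceosome particles, in 3.

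Of receptors and channels of pain transmission 34 of 55 had a spliced peak, 11 in 2 or more lists, and 47.3% of the list's 112 peaks were spliced against 55.3% for named genes. Glra1, the glycine receptor subunit of spinal inhibition, had a peak with the same bounds (chr10:40856277-40862575, 180 bp across a gap of 6119 bp) in control 1 and bone cancer pain 3. Its fold there was 19.6 (FDR 1e-215) and 3.31 (FDR 9.55e-10), and control 2 had another at 9.03. Gria4, an AMPA receptor subunit, crossed the same gap of 9357 bp in control 2 (fold 3.26, FDR 0.0794) and bone cancer pain 2 (fold 31.4, FDR 1.2e-06). Scn1a, a sodium channel, had the same bounds in control 2 (fold 6.52) and control 3 (fold 22.3). Cacna2d2, an auxiliary subunit of calcium channels, reached 60.1 in control 1, 75.4 in control 3 and 20.9 in bone cancer pain 2. 5 of the 34 (Chrna7, Grm5, Cacna1a, Scn1a and Sort1) had spliced peaks in 2 control lists and no bone cancer pain list. Of all genes with a spliced peak, 5.3% had them in at least 2 control lists only. 0 of the 34 had them in both bone cancer pain lists only, where 1.96% of all genes with a spliced peak did. Counting single lists too, 12 of the 34 were in controls only and 16 in bone cancer pain only. Of all 2965 genes with a spliced peak, 1381 were in controls only and 1062 in bone cancer pain only. The 16 included Glrb, Ntrk2, Grin1, Gabbr1 and Gria2, each in a single list. These counts were not tested.

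Of synaptic scaffold and vesicle genes 23 of 40 had a spliced peak, 7 in 2 or more lists. Dlg4, which encodes PSD-95, had 112 in bone cancer pain 2 and 34.2 in bone cancer pain 3. Of signalling kinases and phosphatases 18 of 37 had one, 9 in 2 or more lists, and Mtor crossed the same gap of 3110 bp in both bone cancer pain lists at folds of 107 and 4.42. Of cytoplasmic ribosomal proteins 15 of 32 had one, and 21 of the list's 25 peaks (84.0%) were spliced. Of heat shock proteins and translation factors 15 of 22 had one, 8 in 2 or more lists. All these lists lay above the 29.7% of named genes, as a count and without a test. The same held for peaks of any kind, which 3881 of the 8564 named genes had. Such peaks occurred in 23 of 23 giant linkers and, at the low end, 17 of 32 ribosomal proteins. The spliced part of the peaks was below the 55.3% of named genes for giant linkers, receptors and channels, and synaptic genes (48.6%). It was above that in the other lists. The lists were chosen with earlier results of these data known, so the comparison with all named genes is not independent of the data. The part of input signal in it was not tested.

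Marker genes of the cells of the tissue gave a mixed picture. Of named neuron markers 7 of 9 had a spliced peak, and of astrocyte markers 4 of 10. Of oligodendrocyte markers it was 3 of 13, of microglia markers 1 of 8, of endothelial markers 1 of 3, and of Schwann cell and sensory ganglion markers 1 of 5. The 1 named marker of blood, muscle and bone had no peak. Nefl, the light neurofilament, had folds of 1.48 in control 3 and 3.13 in bone cancer pain 3 at very low FDR (1e-302 and listed at 0). S100b, of astrocytes, crossed the same gap of 3477 bp in control 1 (fold 1.26) and bone cancer pain 3 (fold 1.28). Slc1a3, the astrocyte glutamate transporter, crossed the same gap of 531 bp in bone cancer pain 2 (fold 31.4) and bone cancer pain 3 (fold 3.31). In such bulk tissue, fewer cells of a type and less RNA per cell cannot be told apart.

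By chromosome, the share of spliced peaks lay between 49.3% (chromosome 20) and 58.9% (chromosome 13) on the autosomes and was 44.1% on X (108 of 245 peaks). On X it ranged from 37.5% to 52.3% by list. It lay within the range of the autosomes of the same list in control 1, control 2 and bone cancer pain 3, and below it in control 3 (40.0% to 65.9% on the autosomes) and bone cancer pain 2 (45.2% to 62.2%).

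The second assay of the series, an RNA immunoprecipitation (RIP) in bone cancer pain with a target not given in the sources used here, listed 8671 genes past the authors' threshold. Of spliced peaks, 86.5% to 91.4% per list lay in a gene of that table, against 75.4% to 84.8% of single-block peaks, and the share was higher for spliced peaks in 5 of 5 lists. By gene, 86.4% of genes with a spliced peak and 73.4% of genes with single-block peaks only had a row. The median log2 fold of IP over input in the authors' deposited table was 2.46 for genes with a spliced peak and 2.40 for all its genes. The median of the mean input signal, in the table's own unit, was 4.43 for genes with a spliced peak, 5.58 for those with one in 2 or more lists, 3.80 for genes with single-block peaks only and 2.79 for genes without a peak. Input signal thus moved with the number of lists, and its part in the count of lists was not tested. No test was made on this table, which holds only genes past a threshold.

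The list of bone cancer pain 1 was of another kind. It held 26432 spliced peaks among 50417 (52.4%), a share within the range of the other lists. The median width of its spliced peaks was 540 bp and the largest 28192 bp, blocks reached 119, and 19.6% of its spliced peaks had 7 or more blocks, a number no other list reached. 25809 of the 26432 had the same fold of 10.6. At an FDR of at most 0.05 it held 508 spliced peaks among 919 (55.3%), with a median width of 181 bp and a median fold of 17.6. These peaks still reached 76 blocks and 10436 bp, and 4.53% of them had 7 or more blocks, against at most 6 blocks and 451 bp in the other lists. Of the 289 junctions found in 2 or more of the other lists, 1 was in it at that limit, as were 49 of the 5467 found in 1. The limit was set for bone cancer pain 1 only, which then held 1144 junctions. Without the limit it held 103911 junctions, and 629 of the 5756 of the other lists (10.9%) were among them.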

How the data were processed

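The authors deposited 6 ac4C peak lists, 1 per IP and input pair; 5 were used. Per the file headers each peak had a p-value, a score of log10 of p and of FDR, a ratio (fold of IP over input) and exon blocks. The authors' RIP table gave a log2 fold, a p-value, an FDR and a signal per library. The submitters' processing notes name cutadapt 2.5, HISAT2 2.1.0, HOMER 4.10.4, featureCounts 1.6.3, DESeq2 and rn6, without roles; no source used here names the peak caller.

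Widths, gaps and junctions were computed from the blocks in Python 3.11.15 with pandas 2.3.3. Exact permutation and sign-flip tests (scipy 1.17.1), tested on simulated data, took the list as the unit, with Benjamini-Hochberg adjustment over 6 tests. Symbols came from the RIP table (8564 usable; 29 shared by 81 identifiers left out).

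Members and gene lists were chosen with earlier results of these data known. Named were the first 10 genes by number of lists, junctions in the most lists (10 by the rule; 12 of the 13 are given), the 2 strongest peaks per list, extremes of blocks, width, span and gap, the first 10 genes of each set held by one group only, and list members in 2 or more lists. Alternatives were the FDR limit, adding bone cancer pain 1, 3 or more blocks, blocks of at least 10 bp, gaps of at least 50 bp, 50% overlap, a replicate block and leaving out each list. Some results that the naming rule selects are not reported here. Splice-site and peak sequences were not analysed here.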

Additional observations from a re-analysis of the deposited data

Results flagged for a closer look

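Bone cancer pain 1 was left out of the main comparisons above and used only in separate checks. It held 26432 spliced peaks, against 591 to 1293 in the other 5 lists, and stood out as signal outside the main data. Of these, 508 met an FDR of 0.05. At that limit its median width was 181 bp, and above it 562 bp.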

How the results depend on the processing

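The share of spliced peaks in bone cancer pain minus control stayed negative and the overlap difference stayed below 0 in the 12 alternatives run for each, with no test passing. Only a difference in the share at the FDR limit crossed 0.05, with bone cancer pain 1 added (2.83 percentage points, exact sign-flip p = 0.031, unadjusted). The group difference in median log2 fold turned negative with bone cancer pain 1 added (-0.114) and with a replicate block over numbers 2 and 3 (-0.112), was 0.56 at the FDR limit, 0.42 at that limit with bone cancer pain 1 (chosen after seeing the data) and 0.35 for 3 or more blocks, and ranged from -0.370 to 0.384 when lists were left out. The replicate block left the share difference at -1.77; the labels do not say that equal numbers share anything. The log2 width ratio moved to 0.18 with bone cancer pain 1. The log2 fold ratio of spliced to single-block peaks was -0.210 at the FDR limit (exact p = 0.125), turned to 0.012 for 3 or more blocks and ranged from -0.055 to 0 when lists were left out. Genes held by bone cancer pain only numbered 30 at the FDR limit and 72 to 78 without a control list. With bone cancer pain 1 they numbered 655, counted in at least 2 of 3 lists. This count cannot be had from 1 bone cancer pain list. Genes held by controls only numbered 67 with bone cancer pain 1, 89 with it at the FDR limit (chosen after seeing the data) and 51 to 227 when lists were left out. Recurring junctions numbered 174 at the FDR limit, 913 with bone cancer pain 1 and 141 to 205 when lists were left out. The cause was not tested in any of these. Gene-level counts with 3 or more blocks and the splice-site letters were not run.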
